A study of Mus musculus with 30 samples.

Results

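N6-methyladenosine (m6A) was mapped in mouse embryonic stem cells that carried 2 arginine mutants of METTL14, and the 13RK mutant was compared with the 5RK mutant. The comparison used the 6 deposited m6A peak lists of these lines, 3 for KO_5RK and 3 for KO_13RK, of the 15 lists from 5 lines in the series. A peak is a called bin of 100 nt on 1 strand of a gene. The 6 lists together held 31621 distinct bins in 10719 genes, of 62091 bins in 13765 genes over all 15 lists. A bin or gene was counted as lost when all 3 KO_5RK lists and none of the KO_13RK lists had it, and as gained in the reverse case. This rule gave 325 lost and 108 gained bins, and 147 lost and 43 gained genes.

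Both mutant lines are C57BL/6 embryonic stem cells whose own Mettl14 was knocked out and which were rescued with a METTL14 that the labels call deficient in arginine methylation. The labels do not spell out the names 5RK and 13RK. By its title, the study concerns methylated arginines of METTL14's disordered C-terminal tail and m6A function in DNA repair. The other lines are the wild type (WT), the knockout (KO) and the knockout rescued with wild-type METTL14 (KO_WT). All lines were grown on gelatin with serum and leukemia inhibitory factor. The labels do not say how the rescue proteins were expressed, at what level, or whether a line is 1 clone. The knocked-out gene itself had 1 bin in KO_5RK replicates 1 and 3 and none in any other list of the series, and a peak call on it does not measure its expression.

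METTL14 forms the m6A writer complex with METTL3, the catalytic subunit, and holds the RNA. The complex methylates adenosines in a short consensus around GGAC, mostly in long internal exons and around stop codons. Reader proteins of the YTH family then bind the mark and alter splicing, translation or decay of the transcript. In embryonic stem cells m6A marks many pluripotency transcripts and shortens their lifetime, and cells without it leave the naive state less readily. Protein arginine methyltransferases modify arginine-rich disordered tails, including that of METTL14.

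The embryonic stem cell identity was checked on peak calls of 12 marker genes. KO_5RK lists held 9 to 11 of them and KO_13RK lists 10 to 12. Of the other cell type lists, primed-state genes had 3 to 6 and 1 to 5 of 16 members called in KO_5RK and KO_13RK lists, primitive endoderm markers 2 to 5 and 3 to 5 of 15, fibroblast markers 1 to 2 and 1 to 3 of 16, and neural markers 0 to 1 in both lines of 12. Gata4, Gata6 and Sox17 of the primitive endoderm, Col1a1 and Col3a1 of fibroblasts, and Pax6 and Sox1 of neural cells had no peak in any of the 6 lists. Peak calls are not expression levels, so these counts describe which transcripts were called.

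No genome was used here, so sequence could be read only for bins inside the 300-base windows that RefSeq gives around gene starts in GRCm38.p6. Of all bins of the 6 lists, 141 lay inside such a window on the gene's strand, among them 0 lost, 1 gained and 5 kept bins, where kept means called in all 6 lists. The gained bin belongs to Bmpr1a, the type 1A receptor for bone morphogenetic proteins. A pair of kept bins, in Gtf2h2 (a subunit of the TFIIH repair and transcription factor) and Hnrnpdl (an RNA-binding protein), is shown beside it because each has several GGAC letters, so the contrast in GGAC comes from this choice. Each stretch is the part of the bin before the start in the RefSeq window table, given 5′ to 3′ on the minus strand, with GGAC in capitals. For Bmpr1a that start lies inside the longer RefSeq gene span, and the bin is 752 nt downstream of the start of the span.
Bmpr1a, chr14:34502547-34502634: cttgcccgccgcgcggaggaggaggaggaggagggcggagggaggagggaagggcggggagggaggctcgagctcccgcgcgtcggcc
Gtf2h2, chr13:100492419-100492518: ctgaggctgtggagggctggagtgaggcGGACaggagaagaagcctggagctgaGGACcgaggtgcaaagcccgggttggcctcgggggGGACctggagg
Hnrnpdl, chr5:100039278-100039377: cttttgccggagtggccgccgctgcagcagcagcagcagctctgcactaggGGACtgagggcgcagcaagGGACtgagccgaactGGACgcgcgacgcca
The Bmpr1a stretch, of 78.4% G and C, had 0 GGAC on either strand, and the others had 3 each on the strand of the transcript and 0 on the opposite strand. Kept bins of Eif5a and Ctnnb1, not shown, also had 0 GGAC on the transcript strand. The remaining kept bin inside a window was left out when sequences were selected, so its letters are not given. Over the 100 bases before the start of all 32851 windows, 29.8% held GGAC on the gene's strand and 51.2% on either strand. A match of letters is a description and not a methylated site.

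KO_13RK lists were shorter than KO_5RK lists. KO_5RK had 13013, 12706 and 11174 peaks in replicates 1 to 3, and KO_13RK had 9747, 9588 and 10980. All 3 KO_13RK lists lay below all 3 KO_5RK lists, although the replicates numbered 3 were close. The means were 12298 ± 985 and 10105 ± 762 (SD, n = 3 each), 17.8% fewer in KO_13RK (two-sided exact permutation test, p = 0.1, the smallest that 3 lists against 3 can give). Genes with a peak numbered 5922, 6112 and 5644 in KO_5RK and 5221, 5032 and 5570 in KO_13RK, 10.5% fewer, again without overlap (exact permutation p = 0.1). Bins per gene with a peak were 2.09 ± 0.109 and 1.91 ± 0.0528 (n = 3 each, exact permutation p = 0.1). Genes with a single bin numbered 3052 ± 111 and 2944 ± 35.7, with overlapping lists, and genes with 5 or more bins averaged 321 ± 38.02 and 227 ± 52.8 (n = 3, exact permutation p = 0.2). The shorter lists of KO_13RK thus held fewer genes and fewer bins in each. When every list was cut to its 9588 peaks of smallest p, the difference in genes shrank from -618 to -9.67 per list and that in bins per gene went from -0.171 to 0.00308. Read depth is unknown, so list length, depth and RNA abundance cannot be told apart here, and a bin without a call may still carry m6A. The authors' enrichment value had a median per list of 1.32 ± 0.0289 in KO_5RK and 1.30 ± 0.0611 in KO_13RK.

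**Figure D1:**
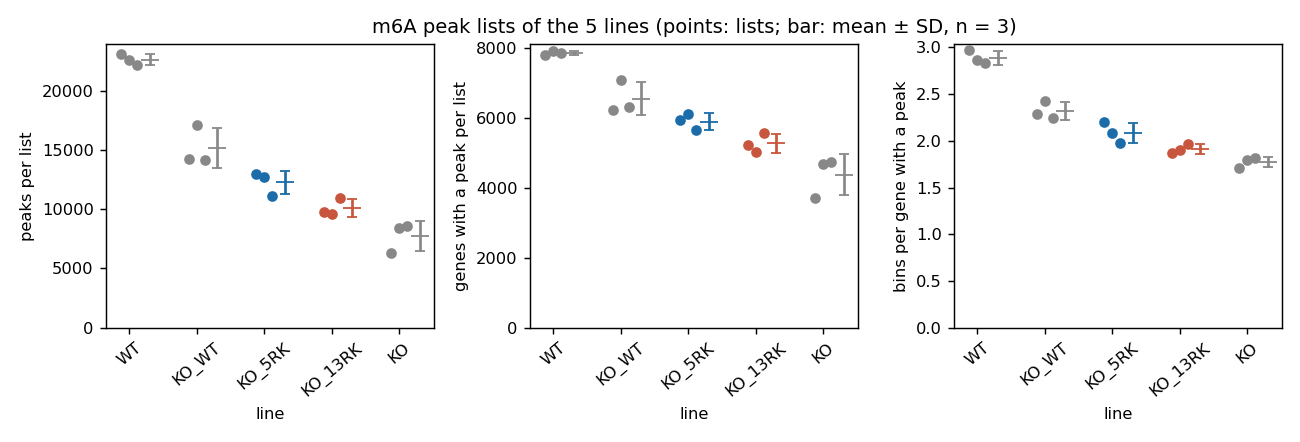
Peaks per list, genes with a peak per list and bins per gene with a peak (vertical axes) in the 5 lines (horizontal axis); points are the 3 lists of a line and the bar is their mean ± SD. The KO_5RK lists (blue) hold 11174 to 13013 peaks and the KO_13RK lists (red) 9588 to 10980, between the KO_WT and KO lists.

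KO_13RK lists had fewer peaks near gene ends and similar numbers near gene starts. Within 2000 nt of the RefSeq gene end, KO_5RK lists had 3713 ± 234 peaks and KO_13RK lists 2843 ± 419 (n = 3 each, exact permutation p = 0.1, no overlap). Within 500 nt of the gene start the numbers were 673 ± 140 and 631 ± 95.7, and the lists overlapped (n = 3, exact permutation p = 0.7). As shares of the placed peaks, 34.8 ± 0.871% and 32.0 ± 1.94% lay near the end (exact permutation p = 0.2, n = 3) and 6.28 ± 0.988% and 7.19 ± 1.61% near the start (exact permutation p = 0.5, n = 3). Both shares overlapped between the lines. In lists of equal length the end share still differed by -1.69 percentage points, with no overlap (exact permutation p = 0.1, n = 3). Without KO_13RK replicate 2, which had the highest start share at 9.01%, the difference in the start share was 0.00848 percentage points.

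Calls were unstable between lists of one line, and this sets the frame for every lost or gained item. Of the 31621 bins, 4185 were in all 3 KO_5RK lists, 3285 in all 3 KO_13RK lists and 2221 in all 6. A further 9737 were in 1 KO_5RK list alone and 7280 in 1 KO_13RK list alone. The Jaccard index of bins, the shared over the total, had a median of 0.304 within KO_5RK, 0.296 within KO_13RK and 0.287 between the lines. Lists of different lines thus shared nearly as many bins as lists of the same line. For genes, the medians were 0.501, 0.466 and 0.476, so that lists of the 2 lines resembled each other at least as much as KO_13RK lists did among themselves.

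The lost bins were 1.03% of all bins and the gained bins 0.342%. For genes the shares were 1.37% lost and 0.401% gained. The excess of lost over gained items went with the length of the lists: in lists of equal length 207 bins were lost and 159 gained, and 104 genes were lost and 68 gained. How much of the excess list length accounts for was not tested beyond this. The counts also depend on asking for all 3 lists, and 2 or more lists against none gave 2104 lost and 925 gained bins.

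**Figure D2:**
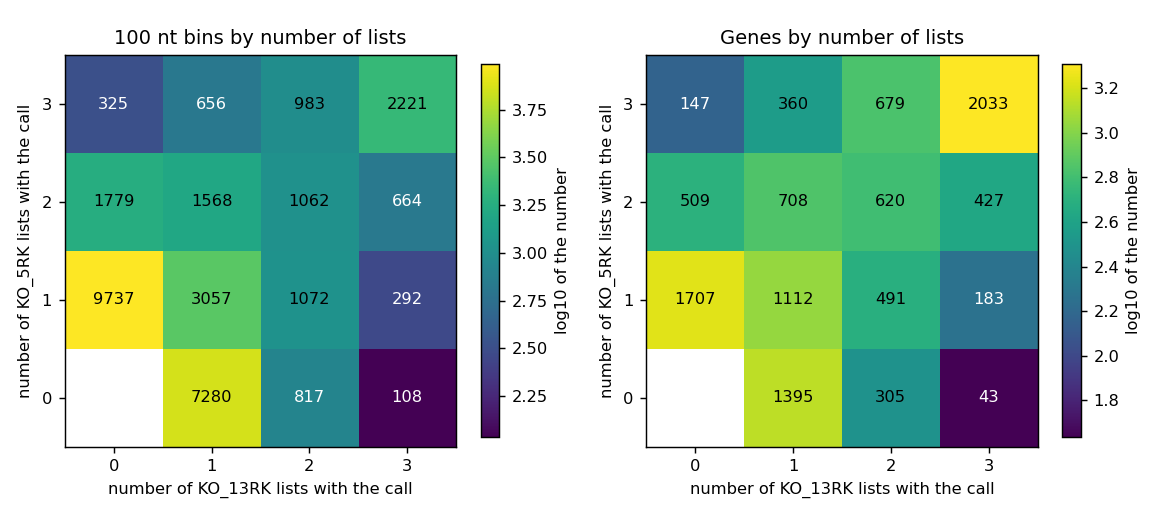
Number of bins (left) and genes (right) by how many KO_5RK lists (vertical axis) and KO_13RK lists (horizontal axis) called them; colour is the log10 of the number. The corners hold 325 lost and 108 gained bins and 147 lost and 43 gained genes, against 2221 bins and 2033 genes in all 6 lists.

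Lost and gained bins were weaker calls than kept bins by p-value, but stood close to them by enrichment. The 4185 bins constant in KO_5RK were split into quintiles by the mean within-list percentile of the deposited p-value. In the weakest quintile 148 bins (17.7%) were absent from all KO_13RK lists, and in the next 105, 50 and 21. In the strongest quintile 1 of 837 bins was absent (0.119%) and 760 were in all KO_13RK lists. The 3285 bins constant in KO_13RK gave the same order, with 59, 28, 17, 4 and 0 absent from all KO_5RK lists. A list holds only bins with a q below 0.05, so bins near that limit may drop out of other lists most readily. How much of the order by p-value comes from this limit was not tested, so the order is not read as a trait of the mutants. On this scale, where 100 is the strongest call of a list, the median lost bin stood at 49.9 in KO_5RK lists and the median gained bin at 44.6 in KO_13RK lists, against 80.2 and 77.2 for kept bins. By percentile of the enrichment value, the median was 43.4 for lost and 44.7 for kept bins in KO_5RK lists. In KO_13RK lists it was 44.0 for gained and 41.5 for kept bins.

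**Figure D3:**
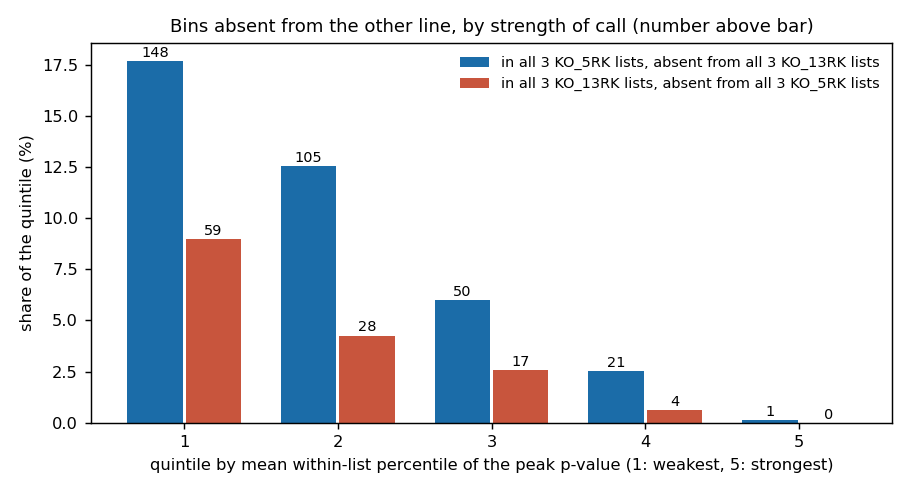
Share of bins (vertical axis, %) that were called in all 3 lists of one mutant and absent from all 3 lists of the other, by quintile of the peak p-value within lists (horizontal axis); numbers above bars are bins. The share drops from 17.7% in the weakest quintile to 0.119% in the strongest for KO_5RK bins, and from 8.98% to 0% for KO_13RK bins. Significance also sets which bins are called, and how much of the drop comes from this was not tested.

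Many lost bins belonged to genes that had another peak in some KO_13RK list. Of the 325, 263 (80.9%) belonged to gene IDs with a peak in at least 1 KO_13RK list, and 129 (39.7%) to IDs with one in all 3. Over all 23416 bins of the KO_5RK lists these shares were 85.5% and 48.4%. Without the gene IDs that span 5 or more other genes they were 78.3% and 31.5% of 286 lost bins, beside 84.8% and 45.9% of all bins. A KO_13RK call lay within 100 nt of 142 lost bins (43.7%) and within 500 nt of 199 (61.2%). Of the gained bins, 91 of 108 (84.3%) were in genes called in at least 1 KO_5RK list, beside 88.8% of all KO_13RK bins, and 49 (45.4%) within 100 nt of a KO_5RK call. The shares at these distances were not computed over all bins, so whether those of lost and gained bins are high or low cannot be said. By position, 38.2% of the placed lost bins, 26.0% of the gained bins and 36.3% of the kept bins lay near the gene end, and 3.82%, 6.25% and 5.80% near the gene start. Over all placed bins of the 6 lists the shares were 32.9% near the end and 7.17% near the start.

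The 9 lists of WT, KO_WT and KO took no part in choosing the bins. Per WT list, 75.6 ± 1.39% of the lost bins were called, per KO_WT list 63.1 ± 4.95% and per KO list 9.85 ± 1.23% (n = 3 each). For gained bins the shares were 40.4 ± 4.75%, 46.0 ± 6.17% and 28.1 ± 4.18% (n = 3 each). Kept bins were called in 95.4% of cases per WT list, 95.7% per KO_WT list and 33.0 ± 2.19% per KO list. Over all 31621 bins of the 6 lists the shares were 44.0 ± 0.393%, 35.5 ± 2.61% and 13.0 ± 1.96%. Gained bins in WT thus stood near the share of all bins, and lost bins in KO a little below it. Bins in all 3 KO_5RK lists stood at 90.3%, 87.3% and 26.0%, and bins in all 3 KO_13RK lists at 88.4%, 88.2% and 31.8%. Lost bins were thus called more often than gained bins in each WT and KO_WT list and less often in each KO list, without overlap. By a stricter reading, 176 lost bins (54.2%) were in all 3 WT lists and in no KO list, as were 13 gained bins (12.04%) and 1278 kept bins (57.5%). Among the lost bins 12 (3.69%) and among the gained bins 6 (5.56%) were in none of the 9 lists. Because WT lists are longer and KO lists shorter than the mutant lists, the levels of these shares move with list length. The order of the classes is a description, since bins of a list are not replicates.

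**Figure D4:**
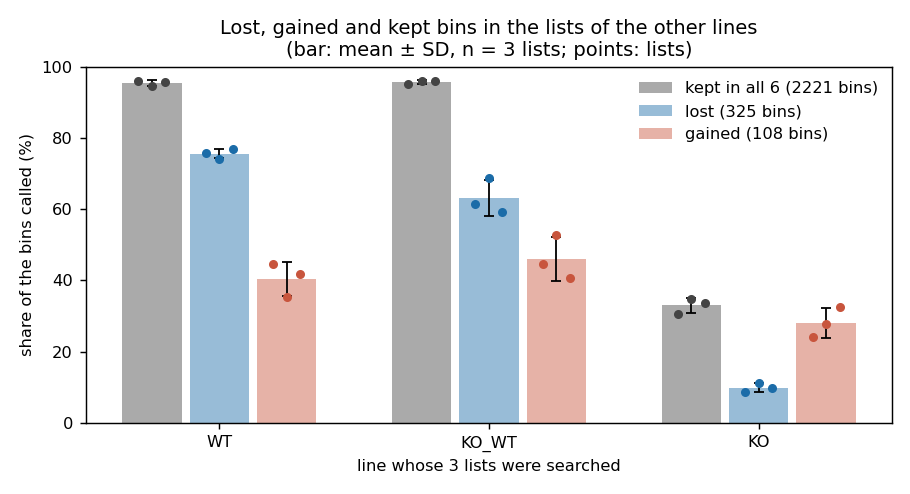
Share of kept, lost and gained bins (vertical axis, %) that were called in each list of WT, KO_WT and KO (horizontal axis); bars are means ± SD of 3 lists and points are lists. Lost bins stand at 75.6% in WT and 9.85% in KO, and gained bins at 40.4% and 28.1%. Over all bins of the 6 lists, not drawn, the shares are 44.0% and 13.0%.

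Lost genes, like gained and kept genes, were called more often in the WT and KO_WT lists than in the shorter KO lists. They were called in 74.6 ± 2.75% of cases per WT list, 66.7 ± 5.93% per KO_WT list and 29.7 ± 6.28% per KO list (n = 3). Gained genes stood at 60.5 ± 6.15%, 48.8 ± 4.03% and 37.2 ± 6.98%. The 2033 genes kept in all 6 lists stood at 97.0 ± 0.344%, 96.3 ± 0.962% and 62.3 ± 5.45%. Of the 147 lost genes, 126 were protein coding, 46 had 1 bin in each KO_5RK list (31.3%), and 120 had no other RefSeq gene on either strand at their bins. Of kept genes, 195 had 1 bin per list (9.59%), and the other 2 counts were not made for them. All WT and KO_WT lists called 50 of them, and 20 of those 50 were called in no KO list. Of the 43 gained genes, 32 were protein coding, 16 had 1 bin in each KO_13RK list, and 4 were called in all WT and KO_WT lists.

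Lost genes that ranked highest by enrichment in KO_5RK lists had 1 to 4 bins each. Zfand6, which encodes a zinc finger protein that binds ubiquitin, had 3, 2 and 4 bins in KO_5RK, 3, 3 and 2 in WT, 0, 2 and 0 in KO_WT, and none in KO_13RK or KO. One of its bins, chr7:84615567-84615666 on the minus strand (GRCm38), was itself lost and lay 572 nt from the gene end. Rgs3, a regulator of G protein signalling, had 1, 2 and 2 bins in KO_5RK, 4, 4 and 6 in WT and 2, 4 and 3 in KO_WT, with none in KO. Cux1, a homeodomain transcription factor, had 2, 1 and 1 bins in KO_5RK and was called in all WT and KO_WT lists, with 0, 0 and 2 bins in KO. These 3 were called in every WT and KO_WT list, except for Zfand6 in 2 of the KO_WT lists. Others had few calls in WT and KO_WT. Trib1, a pseudokinase, had 1 bin in each KO_5RK list and none in any other line. Slc6a7, a proline transporter of brain, had 1 bin in each KO_5RK list and 1 in a single KO_WT list. Tdrd12, a Tudor-domain protein of the piRNA pathway, had 1, 1 and 3 bins in KO_5RK was in no WT list, and had 0, 3 and 0 bins in KO, and a predicted gene overlaps it. Dock4, an activator of Rac, had 2, 1 and 1 bins in KO_5RK, and 2, 1 and 0 in WT. Zfp988 had 2, 1 and 2 bins and overlaps Zfp978 by position, so its reads may not belong to 1 zinc finger gene. Its lost bin, chr4:147331575-147331674 on the plus strand, overlaps a lost bin of the predicted gene Gm26624, chr4:147331579-147331678. Gm26624 was still called in KO_13RK, with 2, 5 and 6 bins.

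Among genes of DNA repair, the crosslink repair list stood lower in KO_13RK by members called, but not without overlap by bins. It had 29, 30 and 32 of 48 members called in KO_5RK and 22, 24 and 26 in KO_13RK, without overlap (exact permutation p = 0.1, n = 3). Its bins numbered 59, 76 and 61 in KO_5RK and 37, 39 and 67 in KO_13RK, and overlapped (exact permutation p = 0.3, n = 3). Of its 44 called members, 19 were in more KO_5RK than KO_13RK lists (43.2%) and 7 in more KO_13RK lists (15.9%), against 38.3% and 26.5% of all 10719 genes. By a difference of 2 or more lists, 5 members (11.4%) were lower in KO_13RK and 0 higher, against 9.48% and 4.95% of all genes. In lists of equal length the difference was -4.67 members per list, still without overlap (exact permutation p = 0.1, n = 3), and over all genes it was -9.67. It held 2 lost genes and no gained gene, which is 4.55% of its called members beside 1.37% of all genes. Dclre1a, a nuclease that opens interstrand crosslinks, had 1 bin in each KO_5RK list, 0, 4 and 2 in WT and 3, 0 and 0 in KO_WT. Ube2t, the ubiquitin-conjugating enzyme that modifies FANCD2, had 2, 2 and 1 bins in KO_5RK, but also 1, 1 and 2 in KO, where METTL14 is absent. Its lost bin, chr1:134962666-134962765 on the plus strand, lay 151 nt from the gene start and was in all 3 KO lists. The call lost from Ube2t was thus one that KO cells also had.

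Other members of the crosslink pathway overlapped between the lines. Fanca, a subunit of the Fanconi core complex, had 4, 5 and 3 bins in KO_5RK and 3, 1 and 0 in KO_13RK. Mus81, a structure-specific nuclease, had 0, 2 and 1 bins against none, and Faap100 had 3, 3 and 2 against 1, 0 and 2. Atr, the kinase that senses stalled forks, had 2, 3 and 2 against 0, 0 and 3. Brca2, a homologous recombination protein, had 3, 10 and 8 against 1, 4 and 3. Wdr48, a cofactor of the deubiquitinase USP1, had 1, 5 and 5 against 2, 2 and 1. Rev1, a translesion polymerase, was called with 6, 6 and 4 bins against 6, 5 and 8. Fanci had 1, 0 and 0 against 0, 2 and 2. Cenpx, Fancc, Fancf and Hltf had no peak in the 6 lists.

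Double-strand break repair genes overlapped between the lines. Members called were 28, 34 and 29 of 50 in KO_5RK and 31, 29 and 32 in KO_13RK, with no lost and no gained gene. At the shares over all genes, 1.37% and 0.401%, a count of 0 among 44 called members says little. Mdc1, the scaffold that binds phosphorylated H2AX, had 3, 4 and 4 bins in KO_5RK and 7, 5 and 8 in KO_13RK, without overlap. It had 7, 5 and 5 in WT and 5, 7 and 5 in KO_WT. Of all 1586 genes with a mean of at least 2 bins, 19 (1.2%) were higher in KO_13RK without overlap. Smc5, of the SMC5/6 complex, had 0, 0 and 0 against 4, 0 and 3. Excision and mismatch repair had 22, 26 and 22 of 49 members called in KO_5RK and 28, 18 and 30 in KO_13RK. Msh6, a mismatch sensor named here after its values were seen, held 2 lost bins while keeping 4, 8 and 5 bins in KO_13RK beside 15, 16 and 6 in KO_5RK. In the checkpoint and p53 list, 23, 21 and 25 of 36 members were called against 19, 19 and 21. The test of the difference between repair lists was not made.

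Of the 2 lists of chromatin regulators, 1 stood lower in KO_13RK without overlap by members called, and both did by bins. Genes of remodelling, acetylation and DNA methylation had 53, 54 and 51 of 74 members called in KO_5RK and 46, 44 and 46 in KO_13RK (exact permutation p = 0.1, n = 3), 13.9% fewer beside 10.5% over all genes, and differed by -6.33 members per list in lists of equal length, still without overlap. Of the 65 called members, 26 were in more KO_5RK than KO_13RK lists and 6 in more KO_13RK lists (9.23%), against 38.3% and 26.5% of all genes. The histone methylation and Polycomb list had 48, 50 and 42 of 68 members called against 45, 43 and 44, which overlapped. Its bins numbered 165, 163 and 136 against 108, 124 and 134, without overlap (exact permutation p = 0.1, n = 3). Those of the remodelling list were 153, 159 and 137 against 108, 97 and 117. The ratio of mean bins, KO_13RK over KO_5RK, was 0.789 and 0.717 in these lists, beside 0.821 over all genes. The 1 lost gene of the remodelling list (1.54% of its called members, near the share of all genes) was Chd4, the ATPase of the NuRD complex, with 2, 2 and 4 bins in KO_5RK, 4, 5 and 5 in WT, 0, 2 and 1 in KO_WT and 1, 2 and 1 in KO. Brd3, a reader of acetylated histones, had 4, 3 and 3 bins against 0, 2 and 2. Signalling genes of the TGF-beta, FGF and Wnt pathways had 38, 39 and 32 of 69 members called against 31, 28 and 31, 17.4% fewer. Solute carriers had 92, 98 and 94 of 192 against 87, 87 and 85, 8.80% fewer and thus no more than all genes. In lists of equal length both overlapped, with differences of -5.67 and -2 members. Over all genes, every KO_13RK list lay below every KO_5RK list by members called. So it did in these 4 of 25 gene lists, and above in 0. In lists of equal length 2 of them remained without overlap, crosslink repair and remodelling. At a q under 0.005 these 2 overlapped, with differences of -2.33 and -6.67 members. The mean number of members was lower in KO_13RK for 19 lists and higher for 4. By bins, KO_13RK lay lower without overlap in 6 of the 25 lists and higher in 0, and lower over all genes. The Zfp genes, of which 233 were called, held 6 lost genes (2.58%, beside 1.37% of all genes) and no gained one. Zfp949 had 1 bin in each KO_5RK list, and Zfp329, which overlaps Zscan18, had 2, 1 and 1. Lost solute carriers, 1.89% of those called beside 1.37% of all genes, were Slc6a7, the amino acid transporter Slc7a3 with 2, 1 and 2 bins, and Slc35f2 with 2, 1 and 1. Slc35f2 was called in every WT and KO_WT list and in no KO list.

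Ribosomal protein genes held 1 lost gene of 69 called, 1.45% and so near the 1.37% of all genes. Rplp2, a protein of the ribosomal stalk, had 1 bin in each KO_5RK, KO_WT and KO list, 1 in WT replicate 1 and none in KO_13RK. Its lost bin, chr7:141447971-141448070 on the plus strand, lay 370 nt from the gene start. The call was thus also made in all lists of cells without METTL14. Across the list, 36, 40 and 40 of 81 members were called in KO_5RK and 39, 34 and 29 in KO_13RK.

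Genes of the m6A machinery and of arginine methylation overlapped between the lines. Writers had 9, 5 and 7 of 14 members called in KO_5RK and 4, 6 and 6 in KO_13RK. Wtap, the adaptor of the writer complex, had 3, 0 and 2 bins against 0, 1 and 1, with 5, 5 and 6 in WT, and Virma, its scaffold, had 2, 5 and 4 against 1, 4 and 2. Mettl16, which methylates the transcript of the S-adenosylmethionine synthetase Mat2a, had 1, 1 and 0 against none. Readers and erasers had 11, 13 and 11 of 16 members called against 8, 9 and 12. The eraser Fto had 0, 3 and 4 bins against 0, 0 and 2, and the reader Ythdf1 had 0, 1 and 0 against 1, 1 and 1. Arginine methylation genes had 10, 10 and 11 of 18 called against 9, 10 and 11, and Prmt7, an arginine methyltransferase, had 1, 3 and 0 bins against none. None of these lists, with 11, 16 and 16 called members, held a lost or gained gene. Over all genes 1.37% were lost and 0.401% gained, so a count of 0 in lists this small says little.

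Pluripotency genes were called in overlapping numbers. In KO_5RK 29, 28 and 24 of 38 members were called, and in KO_13RK 24, 29 and 27. Sox2, a core pluripotency factor, had 5, 5 and 3 bins in KO_5RK, 2, 2 and 2 in KO_13RK and 7, 5 and 7 in WT. Fgf4, the growth factor that primes the exit from the naive state, had 3, 4 and 3 against 2, 2 and 2, and none in KO. Both were without overlap, as were 61 of the 1586 genes with a mean of at least 2 bins over the 6 lists (3.85%). Of the list's members, 20 had such a mean, and these 2 alone were lower without overlap. Bins of Sox2 also lie by position in Sox2ot, so the 2 genes may share calls. Esrrb, a nuclear receptor of the naive state, had 6, 7 and 3 bins against 2, 4 and 2, with 11, 9 and 8 in KO. Klf2 had 2 bins in each of the 6 lists, and Klf4 had 1 in each. Nanog had 3, 2 and 3 against 0, 6 and 4. Lin28a, which blocks maturation of let-7, was the 1 gained gene of the list, with 1 bin in each KO_13RK list, 2, 1 and 2 in WT, 2, 0 and 0 in KO_WT, and none in KO_5RK or KO. Its enrichment stood at the percentile 19.9 within lists.

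Several gained genes were also called in WT. Cep83, a protein of the centriole's distal appendages, had 2, 2 and 1 bins in KO_13RK and 1, 3 and 1 in WT, and none in KO_WT, KO_5RK or KO. Alg12, a mannosyltransferase of N-glycosylation, had 2, 1 and 2 bins in KO_13RK, 1, 2 and 2 in WT and 0, 3 and 1 in KO_WT. One gained bin of it, chr15:88805645-88805744 on the minus strand, lay 452 nt from the gene end. Zzef1 had 1, 2 and 2 bins in KO_13RK, 3, 3 and 0 in WT and 3, 3 and 2 in KO_WT. Itgav, the integrin alpha V subunit, had 1 bin in each KO_13RK list and was in all WT lists. Mki67, the proliferation marker of the chromosome surface, had 1, 1 and 2 bins in KO_13RK and 0 in each KO_5RK list, beside 10, 9 and 17 in WT, 0, 0 and 1 in KO_WT and none in KO. By position, Creb3 overlaps Tln1, and the predicted genes Gm29427, Gm43714 and Gm44597 overlap Pfkfb2, Khdc4 and Ing4. Their calls may thus not belong to 1 gene. Zfyve28, a regulator of EGF receptor signalling, had the most gained bins, 2, with 1, 1 and 4 bins in KO_5RK, 6, 2 and 5 in KO_13RK and 10, 7 and 11 in WT. Usp43 and Ghitm held 1 gained bin each.

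The lost bins were spread over 279 genes, of which 265 had 1. The gene ID Gm20388 had 29, and its bins span 4434000 nt of chromosome 8 across 72 other genes. It is 1 of 20 gene IDs with bins in 5 or more other genes, which together held 39 lost and 2 gained bins. Fgfr2 and Gm26904, with 4 lost bins each, are of this kind, so these are not counts for 1 gene, and the signalling list above includes Fgfr2. Beneath the label Gm20388, lost bins fell by position inside the RefSeq spans of Banp, Tcf25 and Zcchc14 with 3 each. Fanca, Tubb3, Zc3h18 and Zdhhc7 had 2 each. Strand was not matched here. The lost Gm20388 bins are on the plus strand, and Fanca's own lost bin is on the minus strand. These calls therefore cannot be credited to the genes beneath them. Leaving out these 20 IDs left 286 lost and 106 gained bins and all 147 lost genes.

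Of single genes, Hnrnpu held the most lost bins, 3. It encodes a nuclear matrix RNA-binding protein, and had 16, 16 and 11 bins in KO_5RK, 0, 8 and 2 in KO_13RK, 16, 18 and 18 in KO_WT, 15, 14 and 19 in WT, and 0, 6 and 5 in KO. KO_13RK thus lay below every list with wild-type METTL14 and within the range of KO except for replicate 2. The lost bins included chr1:178337209-178337308 and chr1:178337309-178337408 on the minus strand, side by side, and chr1:178336109-178336208, and each was called in all WT and KO_WT lists. The bins at 178336109 and 178337209 were also called in 2 of the 3 KO lists, and the one at 178337309 in none. Cox20 overlaps a bin of Hnrnpu. Klf13, a Krüppel-like factor, held 2 lost bins, with 6, 4 and 5 bins in KO_5RK, 0, 2 and 4 in KO_13RK, 9, 9 and 9 in WT and 0, 1 and 0 in KO. The predicted genes Gm26624, Gm44790 and Gm20275, also among those with the most lost bins, overlap Zfp978, Tia1 and Myo9a in that order. Gm26624 also overlaps Zfp988.

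Counts of bins per gene were tested across the 1586 genes with a mean of at least 2 bins over the 6 lists (limma on log2(bins + 1), which understates changes of low counts). At an adjusted p under 0.05, 0 genes passed (0%). The unadjusted p was under 0.05 for 99, of which 84 had fewer bins in KO_13RK and 15 more, and the lowest adjusted p was 0.651. The median log2 change was -0.14 over all genes tested. All KO_13RK lists lay below all KO_5RK lists for 61 genes (3.85%) and above for 19 (1.2%). With counts scaled for list length, 0 genes passed, 81 had an unadjusted p under 0.05, 29 with fewer and 52 with more bins, and the median was 0.06. The side with more single-gene differences therefore turned with the scaling. Without KO_13RK replicate 2, 2 genes passed, and without any other list 0 did. They were Hnrnpu and Chd1, whose bins lie across 6 other genes.

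The genes of smallest p show the size of these differences, none of which passed. Eef1a1, the translation elongation factor, had 8, 4 and 5 bins in KO_5RK and 1, 2 and 1 in KO_13RK, a log2 change of -1.50 ± 0.33 (SE, n = 3 each, limma adjusted p = 0.651). It had 2, 3 and 3 bins in WT and 2, 3 and 3 in KO, so KO_5RK stood above both. Sox2ot, a long noncoding RNA that overlaps Sox2, had 7, 5 and 5 against 1, 2 and 2 (log2 change -1.33 ± 0.29, limma adjusted p = 0.651), and 7, 6 and 7 in WT. Zfp532 had 6, 5 and 5 against 1, 2 and 2 (log2 change -1.27 ± 0.29). Epb41, a membrane skeleton protein, had 3, 5 and 4 against 0, 1 and 1, and 8, 9 and 8 in WT. Hnrnpu had a log2 change of -2.34 ± 0.62 (n = 3, limma adjusted p = 0.742).

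A few genes had more bins in KO_13RK. Slc25a37, the mitochondrial iron importer, had 1, 2 and 0 bins in KO_5RK and 5, 4 and 4 in KO_13RK (log2 change 1.55 ± 0.42, limma adjusted p = 0.742), against 3, 1 and 1 in WT and 0, 0 and 1 in KO. Ankhd1 had 3, 0 and 1 against 6, 4 and 5 (log2 change 1.57 ± 0.46), with 7, 6 and 6 in WT and 4, 4 and 4 in KO_WT. Atp5a1, a subunit of the ATP synthase, had 2, 2 and 1 against 6, 4 and 3, with 6, 7 and 10 in WT and 4, 5 and 6 in KO. For Ankhd1 and Atp5a1 it was KO_5RK that lay below WT and KO_WT.

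**Figure D5:**
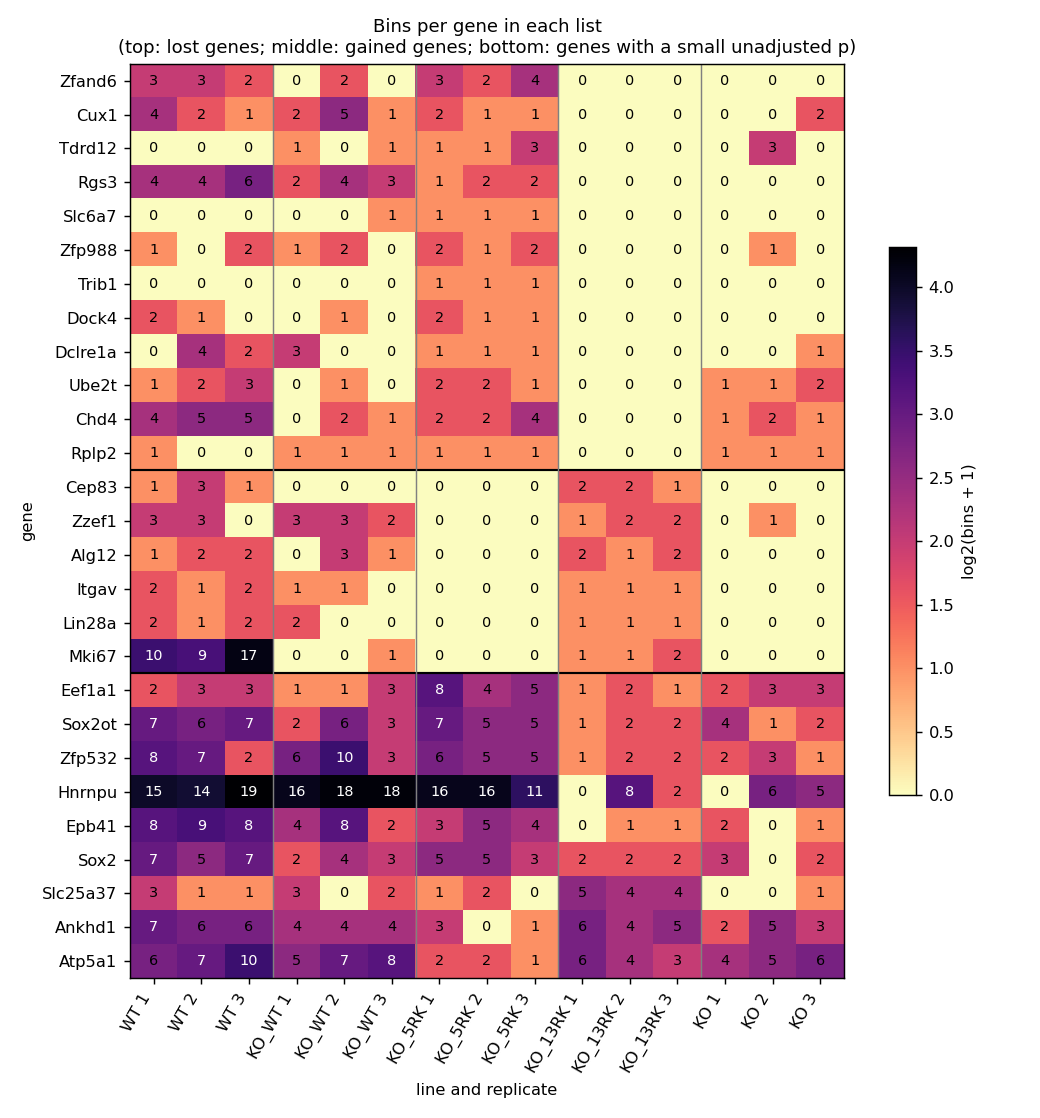
Bins per gene (number in each cell, colour as log2(bins + 1)) in the 15 lists (horizontal axis) for lost genes, gained genes and genes with a small unadjusted p in the fit of bins per gene (vertical axis). Lost genes read 0 in all 3 KO_13RK lists and gained genes 0 in all 3 KO_5RK lists by the rule, and Hnrnpu reads 16, 16 and 11 against 0, 8 and 2.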

How the data were processed

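Per the labels' protocols, purified mRNA was broken into fragments, pulled down with an antibody against m6A, and sequenced from a stranded kit. STAR 2.5.3a, kallisto 0.43.0 and the build GRCm38 appear, without roles, in the submitters' processing notes. The names of the deposited lists include clam_peak, and a peak caller is not otherwise given in the sources read for this work. The authors deposited 1 list per immunoprecipitated library. Each row gives a bin, a gene, an enrichment score, a p-value and a q-value, all below 0.05. The authors' enrichment score, whose scale is not given, and their p-values served only for ranks and filters inside 1 list. Input libraries were not analysed here, so peak calls were not set against RNA abundance, and depth is unknown.

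Symbols matched 99.8% of the 10719 genes, and 87.3% of the peaks were placed on RefSeq spans (GRCm38.p6). Overlap of bins with other RefSeq genes was taken by position, on either strand. The two-sided exact permutation test was used for means per list and cannot go below 0.1 for 3 lists against 3. Bins per gene were fitted with limma 3.58.1 in R 4.3.3 and adjusted by the Benjamini-Hochberg method over all genes tested. The fit was tested on simulated data. The labels do not say whether replicates were separate cultures, so a p-value reflects the spread of these libraries alone. Named genes were Mettl14, the stem cell markers, up to 3 lost and 3 gained members of each gene list, the 8 lost and 8 gained genes of highest enrichment percentile, and those with the most lost (8) and gained (5) bins. Members of the repair, m6A, arginine methylation, pluripotency and chromatin lists outside this rule, and genes of smallest p, were named after their values were seen. The members and lists were chosen with earlier results of these data known. Alternatives were a q under 0.005, peaks at or above the median enrichment of 1.36, equal list lengths, each replicate left out, the replicate block, merged bins, other distances, pseudocounts and filters, and, chosen after seeing the data, leaving out 20 gene IDs that span 5 or more other genes.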

Additional observations from a re-analysis of the deposited data

How the results depend on the processing

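The differences in peaks and in genes per list kept their sign under every alternative that gave a value, and no exact test could pass 0.05. Peaks in lists of equal length give no value. Bins per gene turned sign in lists of equal length (0.00308). Replicate numbers did not pair the lists: the correlations of same-numbered deviations were 0.0190, -0.0195 and -0.0636. With the replicate block the exact permutation p for peaks, genes and bins per gene was 0.25, the smallest possible, and 0 genes passed in limma, with and without scaling.

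Of 26 named lost and gained genes, 22 were called in fewer lists at a q under 0.005, so that they no longer met the rule of all 3 lists. At a q under 0.005, 170 bins were lost and 46 gained, and 96 genes were lost and 28 gained. With peaks at or above the median enrichment, 136 bins were lost and 44 gained. Lists of equal length gave 207 lost bins and 68 gained genes. With 2 or more lists against none, 2104 bins and 656 genes were lost and 925 and 348 gained. Merging bins within 100 nt left 208 lost regions. Leaving out 1 list, which loosens the rule, gave 501 to 1093 lost and 190 to 423 gained bins, and 231 to 350 lost and 98 to 176 gained genes. In limma, 5 genes had fewer bins at a q under 0.005, and 0 to 2 with 1 list left out. By members called, 2 of 25 gene lists lay lower in KO_13RK without overlap at a q under 0.005 and in lists of equal length. With 1 list left out, 4 to 8 lay lower and 0 to 1 higher.

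The share of lost bins called per WT, KO_WT and KO list was 91.2%, 86.3% and 14.7% at a q under 0.005, and 84.1% and 69.7% in WT and KO_WT for lists of equal length. With 1 list left out these shares ranged from 58.6 to 79.4%, 47.5 to 69.5% and 8.84 to 15.4%. The share of gained bins was 68.8%, 69.6% and 33.3% at a q under 0.005, and 65.2%, 64.4% and 21.97% for peaks at or above the median enrichment. With 1 list left out these shares ranged from 32.8 to 54.6%, 32.1 to 56.9% and 19.3 to 30.9%. The order of WT over KO was kept in each of these.

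Differences in gene list members called (KO_13RK minus KO_5RK) that turned sign, none past a test, were as follows. At a q under 0.005 they were -2 for double-strand break repair, -0.333 for fibroblast markers, 0.333 for m6A writers and 0.667 for pluripotency. For peaks at or above the median enrichment they were -2 for double-strand break repair and 0.333 for the primed state. In lists of equal length they were 4.67 for ribosomal proteins, 1.33 for pluripotency, and 0.333 for splicing factors and for ubiquitin ligases. With 1 list left out the sign also turned for arginine methylation (-0.833 to 0.167), double-strand break repair (-0.833 to 2.17), excision repair (-0.333 to 5.67), fibroblast markers (-0.167 to 0.833), pluripotency (-1.83 to 1), splicing factors (-3.83 to 1.17) and ubiquitin ligases (-2.17 to 1).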
